A study of Mus musculus with 2 samples.

Results

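Granzymes and perforin are the proteins with which cytotoxic lymphocytes kill a target cell. The members described here were the 10 genes whose probes the platform annotation names as a granzyme or as perforin, namely Gzma, Gzmb, Gzmc, Gzmd, Gzme, Gzmf, Gzmg, Gzmk, Gzmm and Prf1. They were read by 11 probes among 55681 on the array, and make up 10 of the 20738 genes with a named probe. The rule that picks their probes uses gene names, and the family was taken up with earlier results of these data known.

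The series compared CD4 T cells labelled Gfi1 wild type with CD4 T cells labelled Gfi1 knock out, 1 culture and 1 array each. Both groups carried the C57BL/6 background, and the cells of both were isolated from spleen as naive CD4 T cells and then activated for 2 days. Activation was by immobilised antibody to TCR-β, a chain of the T cell receptor (3 µg/ml) with antibody to CD28 (1 µg/ml), in the presence of IL-2 (10 ng/ml) and of antibodies that block IL-4 (5 µg/ml) and IFN-γ (5 µg/ml). The kind of Gfi1 allele, the cells in which it is lost, the age of the mice and the number pooled are not given in the sources used here. The title of the series asks how Gfi1, a transcriptional repressor, bears on the T helper 1 programme, the programme led by the factor T-bet.

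Perforin, encoded by Prf1, forms pores in the membrane of the target cell, and granzymes are serine proteases that enter through them and cleave proteins inside. Granzyme B cuts after aspartate and triggers apoptosis by activating caspases, whereas granzymes A and K cut after basic residues and granzyme M after methionine or leucine. Mice have, next to Gzmb, a row of duplicated genes (Gzmc to Gzmg and Gzmn), of which Gzmc to Gzmg are known from strongly activated T and NK cells. Perforin and granzymes are stored in secretory granules that are made in cytotoxic T cells and NK cells, and also in activated CD4 T cells under some conditions.

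With 1 array per genotype no spread between cultures or animals can be had and no test was possible, so differences are given by size, as log2 of the knockout-labelled library over the wild-type-labelled library after each array was scaled to its 75th percentile. Signals are in the intensity units of the files. The Gfi1 probe read 4260 units in the wild-type-labelled library and 18100 units in the knockout-labelled library, which goes against the labels if the probe lies in the deleted part, and its place relative to the deletion is not stated in those sources. Every direction therefore rests on the labels. Xist read 447 and 3.86 units and the Y-linked Eif2s3y 2.91 and 3870 units in the same order. This is the pattern of female cells under the wild-type label and of male cells under the knockout label. Genotype and sex therefore cannot be told apart for any gene described here. A probe was called detected above its array's median over probes, the floor, which was 14.2 units for wild type and 14.6 units for knockout by label. Because the RNA came from bulk cultures, fewer cells of a type and less RNA per cell cannot be told apart.

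The start regions of the 5 members with a difference past 2-fold are shown first, to show how far they share sequence, since Gzmb, Gzmc, Gzmd and Gzme lie in one locus and were higher together. Each window runs from 250 bases before to 50 bases after the RefSeq start (GRCm38.p6), 5′ to 3′ on the gene's strand. Capitals mark TGTGGT, the core bound by Runx factors, TGACGTCA, the cyclic AMP response element, and TGANTCA, the AP-1 site, each searched on both strands, so that ACCACA is the Runx core read on the other strand. No matches of these motifs overlapped one another.
Gzmb (chr14:56262285-56262584, minus strand): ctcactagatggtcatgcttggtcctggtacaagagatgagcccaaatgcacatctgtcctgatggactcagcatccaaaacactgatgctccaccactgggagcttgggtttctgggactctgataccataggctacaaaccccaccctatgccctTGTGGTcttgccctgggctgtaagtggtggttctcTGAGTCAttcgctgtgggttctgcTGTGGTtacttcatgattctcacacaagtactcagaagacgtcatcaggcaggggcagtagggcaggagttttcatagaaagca
Gzmc (chr14:56234608-56234907, minus strand): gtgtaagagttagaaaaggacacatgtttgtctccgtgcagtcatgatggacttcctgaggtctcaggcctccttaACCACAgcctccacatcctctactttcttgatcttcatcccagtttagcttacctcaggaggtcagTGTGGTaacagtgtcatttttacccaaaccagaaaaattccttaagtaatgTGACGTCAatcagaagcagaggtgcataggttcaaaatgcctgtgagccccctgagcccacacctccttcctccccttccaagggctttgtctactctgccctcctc
Gzme (chr14:56120576-56120875, minus strand): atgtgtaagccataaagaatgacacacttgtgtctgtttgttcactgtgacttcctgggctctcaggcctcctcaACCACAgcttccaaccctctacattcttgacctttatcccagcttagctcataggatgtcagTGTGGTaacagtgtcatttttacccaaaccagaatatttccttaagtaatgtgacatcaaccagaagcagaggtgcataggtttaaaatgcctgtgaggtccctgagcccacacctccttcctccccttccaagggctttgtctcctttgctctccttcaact
Gzmd (chr14:56132544-56132843, minus strand): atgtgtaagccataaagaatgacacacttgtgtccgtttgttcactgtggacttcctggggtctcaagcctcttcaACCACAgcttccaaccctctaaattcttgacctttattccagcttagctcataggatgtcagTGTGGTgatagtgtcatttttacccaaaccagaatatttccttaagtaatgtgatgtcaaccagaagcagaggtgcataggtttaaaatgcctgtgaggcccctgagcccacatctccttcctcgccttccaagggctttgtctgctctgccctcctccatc
Gzma (chr13:113100932-113101231, minus strand): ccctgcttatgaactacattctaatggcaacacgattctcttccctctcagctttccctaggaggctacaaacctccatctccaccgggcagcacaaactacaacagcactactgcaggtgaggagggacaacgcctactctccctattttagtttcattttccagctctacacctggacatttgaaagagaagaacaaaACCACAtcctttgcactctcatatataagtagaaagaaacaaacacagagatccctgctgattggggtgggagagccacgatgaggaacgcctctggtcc

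All 10 members had a window in the RefSeq table. The Runx core occurred in 9 of the 10, against 16.8% of the 32851 windows of this length, and Gzmk was the member without it. A member was counted if any of its windows held the core. Gzmm held it at -247 in its upstream window and not in its other window. Gzmc, Gzmd, Gzme, Gzmf and Gzmg each held it on both strands, at positions -174 and -108 from the start in Gzmc and at -175 and -113 in Gzme. These windows are not independent of each other. Over the 10 pairs among these 5 genes, 79.7% to 93.7% of the 300 bases were identical, with Gzmd and Gzme the closest pair, whereas the 45 other pairs among the granzymes, Gzmn and Prf1 reached 46.3% to 57.0%. Gzmb shared 53.0% with Gzmc, its neighbour.

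Other motifs split the family. The cyclic AMP response element was present in Gzmc, Gzmf and Gzmg, at -57, -82 and -77, against 1.79% of all windows. Gzmb alone held an AP-1 site, TGAGTCA at -58 (7.81% of all windows). The Ets core AGGAAG was found in 7 of the 10 members, against 35.4% of all windows. All of the similar windows of Gzmc to Gzmg held it, and Gzmm held it in 1 of its 2 windows. The T-box letters GGTGTGA, which T-bet and Eomes can bind, were present in Gzmk and in 1 of the 2 windows of Gzmm (3.98% of all windows) and not in the windows of the other 8 members. AAATCA, which holds the AATC core of GFI1 sites, was in the windows of 0 members and in 14.0% of all windows. The AATC core alone was not counted. Read on either strand, it does occur in the windows of Gzma, Gzmb and Gzmc shown above. Of the other letters searched, the E-box CANNTG was in 9 of the 10 members, against 72.3% of all windows. The STAT site TTCNNNGAA was in Gzmb and in 1 of the 2 windows of Gzmm (8.30% of all windows). The TATA box TATAAA was in 0 members (13.6% of all windows). Such matches are letters in a short window and were not set against any binding data.

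Granzymes and perforin lay above the wild-type label in 9 of 10 genes, and 5 of them, Gzma, Gzmb, Gzmc, Gzmd and Gzme, were at least 2-fold higher in the knockout-labelled library. None was at least 2-fold lower. Among all 13411 genes detected on at least 1 array, 3.62% passed 2-fold upward and 1.52% downward. The median log2 difference of the members was 0.94, against -0.05 over all detected genes. Of the 10 members, 7 were detected on both arrays, and Gzmd, Gzmf and Gzmg only in the knockout-labelled library, so that their differences are lower bounds and could only come out above 0. Among the 7 detected on both arrays, 6 were above 0 and 4 passed 2-fold upward, beside 2.99% of the 12498 genes detected on both. At signals of at least 500 units, where spots are most precise, the background fell to 1.98% higher and 0.234% lower of 6831 genes. Of the 4 members in that range, Gzma, Gzmb and Gzmc were at least 2-fold higher and Prf1 was not.

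**Figure D1:**
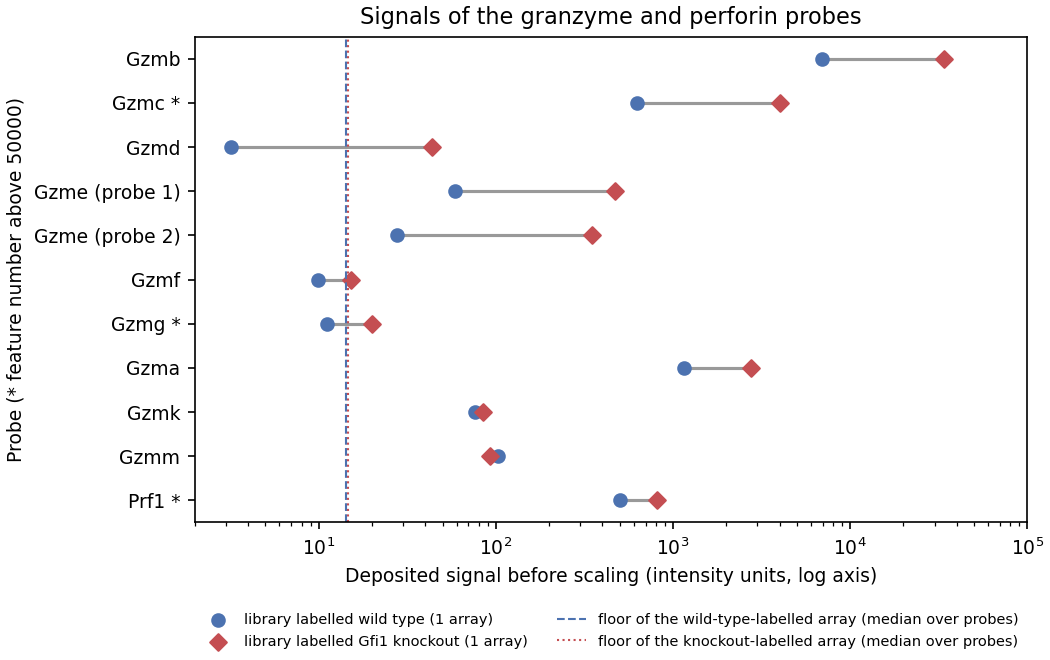
Deposited signal of each of the 11 probes of granzymes and perforin (x axis, intensity units, log axis) in the wild-type-labelled library (circles) and the Gfi1-knockout-labelled library (diamonds), 1 array each, with the floor of each array as a vertical line. Gzmb, Gzmc, Gzma and both Gzme probes lie apart between the arrays and above the floor on both, Gzmk and Gzmm lie close together, and Gzmd crosses the floor.

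Granzyme B is the family's main inducer of apoptosis. Gzmb read 6900 units in the wild-type-labelled library and 34000 units in the knockout-labelled library, a 4.82-fold difference (log2 2.27). Its signal was thus already far above the floor under the wild-type label. Over the 40 probes printed on 10 spots each that read more than 5000 units, the median SD of the log2 difference across spots was 0.04, which is the error within the arrays and not that between cultures. Gzmb had the 94th largest positive difference of the 13411 genes.

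Gzmc, the gene next to Gzmb, read 627 and 4000 units, in the same order, and was 6.24-fold higher (log2 2.64). Its single probe lies at a feature number above 50000, where dim spots scattered more than elsewhere on these arrays. In the level class of Gzmc, 500 to 5000 units, replicate spots above 50000 departed from the other spots of their probe by a median of 0.04 (log2, 216 spots), against 0.03 for spots up to 50000 (814 spots), and 0 of the 216 departed by 2-fold.

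Gzme showed the largest difference in the family. Its 2 probes read 58.7 and 27.7 units in the wild-type-labelled library and 470 and 350 units in the knockout-labelled library. Both probes were higher, by log2 2.97 and 3.63, and their mean was 3.30 ± 0.47 (SD over 2 probes), a 9.83-fold difference that ranked 22nd of all genes. All 4 readings fall below 500 units. With the floor raised to the 75th percentile, both wild-type readings lie under it and the difference became 0.59, below 2-fold.

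Gzmd, the neighbour of Gzme, read 3.21 units in the wild-type-labelled library, which is below the floor, and 43.7 units in the other. It was at least 3.01-fold higher. Adding an offset of 16 units before the log reduced its log2 difference to 0.95, below 2-fold. Since Gzmd and Gzme come from duplicated genes with near-identical start regions, and the probe sequences were not used here, signal from one gene on the probe of the other was not tested.

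The remaining duplicated granzymes were dim. Gzmf read 9.90 units, below the floor, and 15.2 units, just above it, and was at least 1.05-fold higher. Gzmg read 11.1 units, below the floor, and 20.0 units, and was at least 1.38-fold higher, on a probe with a feature number above 50000. Without the floor their log2 differences were 0.59 and 0.82, beside a median SD of 0.54 between the spots of replicate probes under 15 units. Gzmn, a further gene of this row that is not among the 10 members, has a probe printed on 10 spots. In the wild-type-labelled library these read 2.68 to 3.52 units (median 3.11), and in the other 2.94 to 7.84 units (median 3.48), where the other 9 spots reached at most 3.83 units. All of these readings lay below the floor.

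Granzyme A, a tryptase that is typical of NK and CD8 T cells, was higher too. Gzma read 1160 units in the wild-type-labelled library and 2770 units in the knockout-labelled library, a 2.33-fold difference (log2 1.22), against a within-array SD of 0.05 at this level. Gzmk, which lies beside Gzma on chromosome 13 and encodes a protease of related specificity, read 76.3 and 85.1 units. Its log2 difference of 0.12 is about the within-array SD of 0.11 at 50 to 500 units. The adjacent pair thus differed from each other in size, by one member past 2-fold and the other near 0.

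Gzmm was the single member with a lower reading under the knockout label. Its probe gave 103 units for wild type and 92.6 units for knockout by label, a log2 difference of -0.19, within 2 such SDs. Prf1 read 504 and 814 units and was 1.58-fold higher (log2 0.66), larger than the within-array SD of 0.05 but short of 2-fold. The Prf1 probe has a feature number above 50000. Its difference was smaller than those of Gzma, Gzmb and Gzmc at comparable precision, each of which passed 2-fold.

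**Figure D2:**
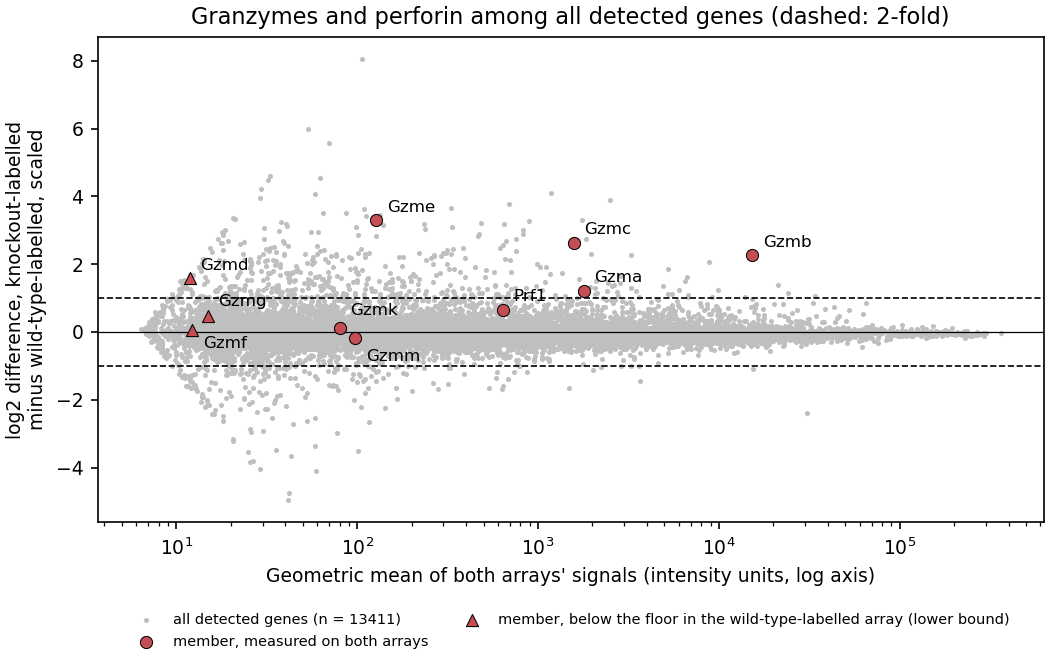
Scaled log2 difference (y axis, knockout-labelled minus wild-type-labelled) against the geometric mean signal of both arrays (x axis, intensity units, log axis) for all 13411 detected genes in grey and the 10 members in red, with triangles for lower bounds and dashed lines at 2-fold. Gzmb at 2.27 and Gzmc at 2.64 stand above the 2-fold line, and Gzmk and Gzmm lie within the grey band.

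These readings moved little with the scaling. Under median, quantile, cyclic loess and no scaling and with the authors' second table, Gzmb stayed between 2.26 and 2.32, Gzmc between 2.63 and 2.70, Gzma between 1.22 and 1.29, Prf1 between 0.65 and 0.72 and Gzmm between -0.19 and -0.11. The median of all genes moved from -0.06 to 0.01 over the same settings. Gzma and Gzmb were at least 2-fold higher in all 13 alternatives, and Gzmc in all 12 that kept its probe.

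Position along the chromosomes separated the family further. Gzme, Gzmd, Gzmg, Gzmn, Gzmf, Gzmc and Gzmb follow each other in this order on chromosome 14 without another protein-coding gene between them, by the RefSeq gene order of GRCm38.p6. The differences of 2-fold lay at both ends of the row (Gzme and Gzmd, Gzmc and Gzmb), with the dim Gzmg, Gzmn and Gzmf between them. Beyond Gzmb, Atp12a and Rnf17 were below the floor on both arrays, and Cenpj, Parp4 and Mphosph8 stood at log2 differences of 0.09, 0.19 and -0.10. Beyond Gzme lie related proteases of other leukocytes. Ctsg, which encodes the neutrophil protease cathepsin G, read 160 and 275 units (log2 0.75), and Mcpt8, a basophil protease gene, read 125 and 297 units (log2 1.22). Mcpt2, a mast cell protease gene, read 233 units in the wild-type-labelled library and 3.62 units, below the floor, in the other, on a spot above feature number 50000. In that class of spots, detected but under 500 units, 13.0% were at least 2-fold lower and 12.6% at least 2-fold higher. Where the feature number was lower, these shares were 3.28% and 6.22%.

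**Figure D3:**
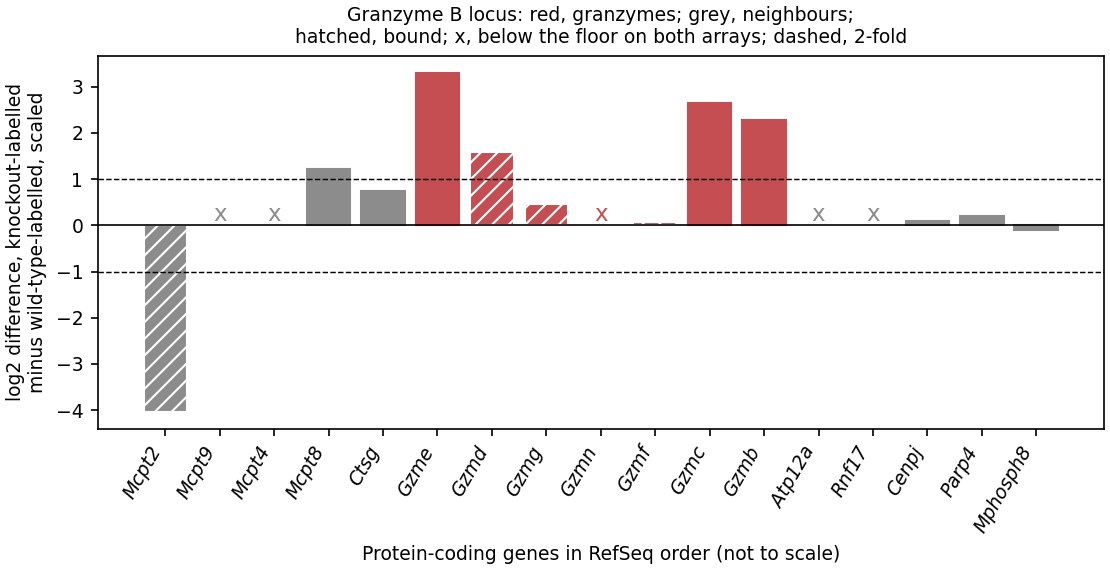
Scaled log2 difference (y axis) of the protein-coding genes around the granzyme B locus in RefSeq order (x axis, not to scale), with granzymes in red, neighbours in grey, bounds hatched and genes below the floor on both arrays marked x. Gzme, Gzmd, Gzmc and Gzmb pass 2-fold upward, and the 3 measured genes beyond Gzmb lie between -0.10 and 0.19. Beyond Gzme, Mcpt8 at 1.22 also passes 2-fold upward, Ctsg stands at 0.75, and Mcpt2 at -4.03 is a bound.

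The other 3 places of the family showed no such row of members past 2-fold. Of the 10 nearest genes around Gzma and Gzmk on chromosome 13, 5 were detected, with a median of 0.12 and a range of -0.41 to 0.36. Around Gzmm on chromosome 10 all 10 neighbours were detected, with a median of -0.12 and a range of -0.45 to 0.15, so that Gzmm at -0.19 lay inside the range of its neighbours. Around Prf1, also on chromosome 10, 7 of 10 were detected with a median of 0.17, and the adjacent Adamts14 read 113 and 185 units, a log2 difference of 0.68 beside 0.66 for Prf1. In these 3 places 0 of the detected neighbours passed 2-fold, beside 3.62% upward and 1.52% downward of all detected genes. At such shares a count of 0 among so few genes does not set these places apart.

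Genes of the granule pathway outside the family differed by list. Over 69 detected genes of 8 lists, 18 passed 2-fold upward and 2 downward, and the median was 0.29, against 3.62% and 1.52% of all genes. Granzyme processing and matrix genes had a median of 0.05 over 8 genes. Ctsc, the dipeptidase that activates granzymes by removing their propeptide, read 1850 and 1810 units (log2 -0.06), and Srgn, which encodes the granule proteoglycan serglycin, 25500 and 29300 units (log2 0.17). Cst7, the cystatin that restrains Ctsc, read 3970 and 2800 units (log2 -0.54). Ctsh, a second enzyme able to activate granzyme B, read 5.64 units, below the floor, and 57.2 units, at least 3.94-fold higher, and Ctsw, a cathepsin gene of NK and CD8 T cells, stood at 1.28 on a probe above feature number 50000.

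The lists of genes that sort, carry and release granules had medians near 0. The sorting and membrane list had a median of -0.07 over 9 genes, with the lysosomal membrane gene Lamp1 at -0.17 and with Nkg7, a granule membrane gene of cytotoxic cells, at 1.07 ± 0.35 (SD over 2 probes) as the 1 gene past 2-fold. The release list had a median of 0.02 over 11 genes. Rab27a, the GTPase that docks granules, stood at 0.02, and Unc13d, which primes them for fusion, at 0.10. The synaptotagmin-like genes of the list, whose products bind Rab27a, differed in direction. Sytl3 stood at 1.09 ± 0.03 (SD over 3 probes) and Sytl1 at 0.45 ± 0.10 (SD over 2 probes). Sytl2 stood at -2.09 on a dim probe that read 71.3 and 17.1 units.

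Inhibitors of granule proteases had a median of 1.48 over 6 genes, of which 3 were at least 2-fold higher. Serpinb9, which encodes the granzyme B inhibitor, read 858 and 1420 units (log2 0.69). Serpinb6b read 10700 and 21500 units (log2 0.97). The 3 past 2-fold were Serpina3g at 2.56, Serpina3f at 1.98 ± 1.26 (SD over 2 probes, 1 of them below the floor under the wild-type label) and Serpinb1a, which read 27.9 and 114 units, and these are better known as inhibitors of cathepsins or of neutrophil proteases than of granzymes. Serpinb9b was below the floor on both arrays. Among the ligands of death receptors, a route of killing apart from granules, Fasl read 1410 and 2050 units (log2 0.51), Tnfsf10 stood at -0.20, Tnf at 0.66, and Lta was 2.82-fold higher.

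Transcription factors known to act on granule genes had a median of 0.62 over 19 genes, of which 7 passed 2-fold upward and 0 downward. Tbx21, which encodes T-bet, stood at 3.00 (289 and 2360 units), on a spot above feature number 50000, and Eomes, the related T-box gene that acts on Prf1 and Gzmb, at 1.47 ± 0.08 (SD over 2 probes). Runx3, which acts with Eomes in cytotoxic cells, stood at 0.67 ± 0.19 and Runx1 at -0.18 ± 0.29 (SD over 2 probes each). The other genes past 2-fold were Batf3 (1.78), Irf8 (1.24), Irf4 (1.04), Jun (1.05) and Fos (1.86), the last on a dim probe. Prdm1 stood at 0.79 on 26.1 and 46.2 units. Bcl6, which opposes this programme, stood at -0.02, and Tcf7 at -0.30 ± 0.06 (SD over 2 probes). The list of the IL-2 pathway, which induces Gzmb and Prf1, had a median of 0.39 over 8 genes, of which 2 passed 2-fold upward. Il2 stood at 2.14 on a spot above feature number 50000, Socs1 at 1.11, Il2rb at 0.67, Cish at 0.49, Il2ra at 0.29, Jak3 at 0.26 ± 0.05 (SD over 2 probes), Jak1 at -0.02 and Il2rg at -0.17. IL-2 was added to both cultures.

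**Figure D4:**
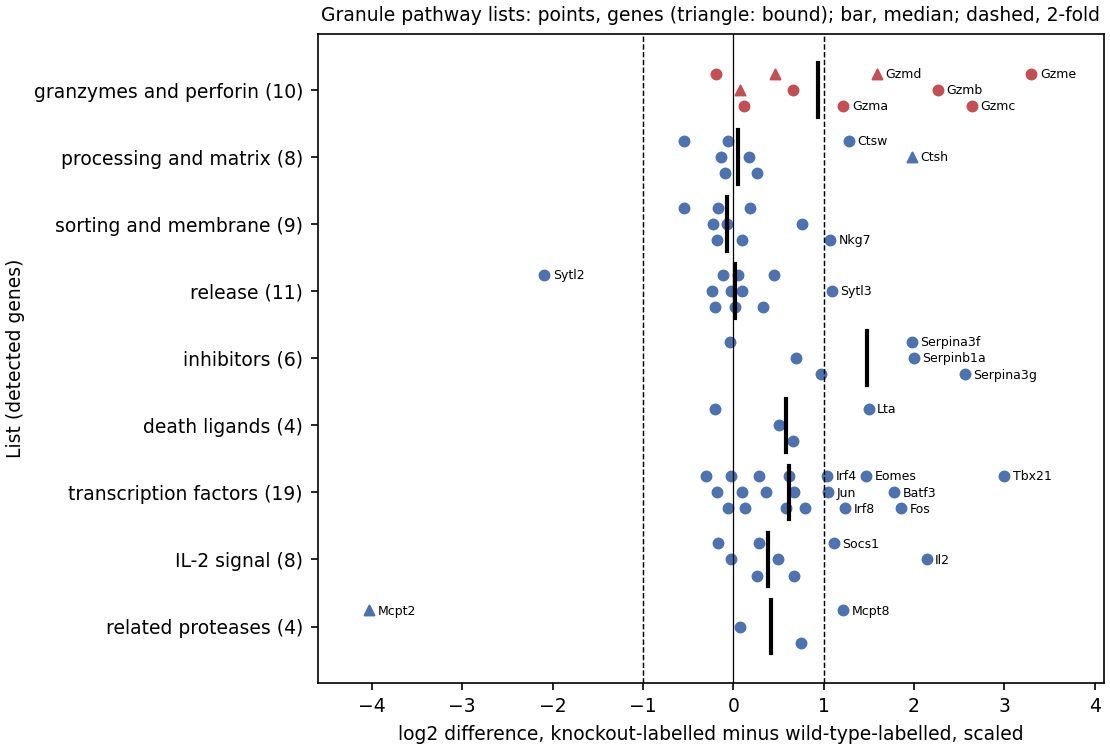
Scaled log2 difference (x axis, knockout-labelled minus wild-type-labelled) of each detected gene in the granzyme and perforin family (red) and in 8 lists of the granule pathway (blue), with triangles for bounds, a black bar at each list's median and dashed lines at 2-fold. The family's median is 0.94, the processing, sorting and release lists have medians of 0.05, -0.07 and 0.02, and the inhibitors 1.48.

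Markers of other granzyme-making cells differed between the arrays by list. Of 13 NK markers with a probe, 9 were detected on both arrays by at least 1 probe, and these 9 passed 2-fold upward. The share was 3.62% of all detected genes and 2.99% with only probes detected on both arrays. Klra1 passed at 1.01 ± 0.98 (SD over 2 probes), and Klra7 averaged 12.8 units, below the floor, in the wild-type-labelled library. The brightest probes of the 13 genes summed to 664 and 2094 units. The other 4, Ncr1, Klrb1c, Klrk1 and Klre1, lay below the floor in the wild-type-labelled library and at 18.2 to 28.3 units in the other, as bounds that could only come out above 0 and that did not reach 2-fold. Of the CD8 T cell genes, Cd8a read 4.07 units, below the floor, and 34.9 units, and Cd8b1 127 and 244 units (log2 0.91). The list of NKT and gamma delta T cells had a median of 0.11 over 3 detected genes with 0 past 2-fold, Zbtb16 at 0.11, Il18rap at 0.81 and Sox13 at -0.09. Mast cell and basophil markers summed to 676 and 1270 units, with 4 of 6 detected genes at least 2-fold higher (Cpa3, Kit as a bound, Fcer1a and Mcpt8). Cpa3 and Fcer1a, and Fcer1g of the NK list, were read only above feature number 50000. Of detected spots there under 500 units, 12.6% were at least 2-fold higher, beside 6.22% at lower feature numbers. Hdc stood at 0.65 and Tpsb2 at 0.43, while Ms4a2, Tpsab1, Mcpt4 and Cma1 were below the floor on both arrays. The part of such cells in the granzyme readings was not tested.

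Markers of the labelled cell type were present on both arrays. The 8 CD4 T cell markers with a probe were all detected and summed to 251100 and 230000 units, with 0 past 2-fold and a median of -0.22, and Cd4 read 2319 and 2146 units. Most of this sum came from Cd3e, Cd3d, Cd3g, Cd5, Cd28 and Thy1, which other T cells share, so that it does not set CD4 T cells apart. B cell markers summed to 552 and 1193 units, with Ms4a1 at 3.52 and Blnk at 3.62 past 2-fold among 7 detected and Pax5 below the floor on both arrays. The remaining detected genes of this list were short of 2-fold. Cd79a stood at 0.41 ± 0.72 (SD over 2 probes), Cd22 at 0.37, Ebf1 at 0.29 as a bound, Cr2 at 0.25 and Cd79b at -0.17. Myeloid and granulocyte markers had medians of 0.01 over 5 genes and -0.07 over 3 genes, and Lyz2, S100a8 and S100a9 were below the floor on both arrays, whereas Mpeg1 stood at 4.53 as a bound.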

How the data were processed

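For each genotype label 1 culture was read on 1 array in a single colour (Cy3), from 100 ng of total RNA per the labels' protocols. Per the submitters' processing notes, Agilent Feature Extraction 11.5.1.1 was used. The files deposited by the authors give a linear intensity per spot headed as raw (59305 spots, 55681 probes); their background correction is not stated there. A second table deposited by the authors holds the same intensities times 2.27 and 2.26, and served as an alternative. Depth does not apply to arrays, and their number limits the precision.

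From these, log2 signals were averaged over each probe's spots and set relative to the array's 75th percentile (263 and 269 units). A side below the floor was set to it, and probes below it on both arrays were left out. Detected probes of a gene were averaged. Fold bounds set the knockout-labelled signal against the floor of the wild-type-labelled array, or the reverse. Genes were named from the platform annotation, updated through RefSeq accessions for 29050 spots, symbols for 2061 and synonyms for 349; 5 kept their name. The files name no genome build, and coordinates are those of the RefSeq windows. With 1 array per genotype no test was run, and called means past 2-fold. The steps were tested on simulated data. Named genes are all members, list genes past 2-fold, and others of a described list. Members and lists were chosen with earlier results of these data known. Gzmn, the neighbouring genes and the motifs were chosen in the same way. Computation used Python 3.11.15, numpy 2.4.6, pandas 2.3.3, statsmodels 0.14.6, Biopython 1.88 and matplotlib 3.10.9.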

Additional observations from a re-analysis of the deposited data

How the results depend on the processing

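The members' median stayed above 0 under the 13 alternatives of scaling, source, floor, probe choice, offset and spots. Each member kept the sign of its difference in every alternative that kept its probe. For Gzmd, Gzmf and Gzmg that sign was fixed in advance wherever they lay below the floor in the wild-type-labelled library alone. The authors' second table holds nearly constant multiples of the same intensities, so that it could hardly change a sign. Counts have no sign, so that under these alternatives and the 2 other fold thresholds they could move but not reverse. The members' count of 5 at least 2-fold higher became 3 of 5 detected with the floor raised to the 75th percentile and 4 of 10 with the offset. It was 4 of 7 both with only probes detected on both arrays and without spots above feature number 50000. The members' median moved to 1.22 with that floor, with only probes detected on both arrays and without those late spots. Each of these settings leaves out dim or late members. With the offset the median moved to 0.80. Over all genes, higher and lower counts were 980 and 634 with a floor lowered to the 25th percentile, 136 and 20 with it at the 75th, 1004 and 638 with no filter and no floor, 1029 and 570 at 1.5-fold and 215 and 87 at 3-fold. They were 374 and 125 with only probes detected on both arrays, 338 and 117 with the offset and 351 and 105 without late spots. The main setting gave 485 and 204. In the pathway lists 8 genes were higher at 3-fold. Higher and lower counts of these lists were 12 and 0 with the 75th percentile as floor. They were 17 and 1 with only probes detected on both arrays and 15 and 1 without late spots. The signal over background limits Gzmd, Gzmf and Gzmg to bounds. No paired analysis was possible because each genotype has 1 array and the labels carry no replicate numbers.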
